A study of Mus musculus with 8 samples.

Results

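The regulators of G protein signalling (RGS) examined here are 10 mouse genes, Rgs2, Rgs3, Rgs4, Rgs5, Rgs7, Rgs8, Rgs9, Rgs10, Rgs12 and Rgs17, chosen by name as the rows of the count table that carry these symbols. All 10 were found among the 43372 symbols of the table, and all 10 were among the 11828 genes with enough reads to be tested. They were measured by RNA sequencing in 2 populations of neurons picked by hand from dorsal root ganglia (DRG), the clusters of sensory nerve cell bodies beside the spinal cord. The Sst libraries came from C57Bl/6 mice of the genotype Ssttm2.1(cre)Zjh/J, called Sst-IRES-Cre, in which Cre recombinase is made from the somatostatin locus. The Trpv1 libraries came from C57Bl/6 mice of the genotype Trpv1tm1(cre)Bbm/J, called Trpv1-IRES-Cre, in which Cre is made from the locus of the capsaicin receptor. Mice of both genotypes were injected at postnatal day 2 with the virus AAV9-CAG-FLEX-tdTomato-WPRE or its counterpart AAV9-CAG-FLEX-eGFP-WPRE, whose fluorescent protein Cre switches on (which virus a sample received is not given), and fluorescent cells were picked at 3 to 5 weeks of age. Recombination is permanent, so fluorescence marks cells in which Cre has been active and not cells that held Sst or Trpv1 RNA when picked. Each of the 4 libraries per population, called an Sst pool or a Trpv1 pool below, was made from 150 to 250 cells per mouse.

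A receptor coupled to a heterotrimeric G protein loads the alpha subunit with GTP, and alpha-GTP and the released beta-gamma dimer then act on enzymes and channels. An RGS protein carries a domain that speeds GTP hydrolysis by the alpha subunit, so it shortens the signal. In sensory neurons the receptors for opioids, serotonin, prostaglandins and many itch mediators signal this way. The family is divided by sequence: the R4 group (Rgs2, Rgs3, Rgs4, Rgs5 and Rgs8 here) holds mostly small proteins that act on Gi/o and Gq, the R7 group (Rgs7 and Rgs9) works in a complex with the beta subunit Gnb5 and acts on Gi/o, the R12 group holds Rgs10 and Rgs12, and the RZ group, whose name comes from the alpha subunit Gz, holds Rgs17.

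Rgs4 carried the largest part of the RGS signal, and Rgs5 and Rgs17 were the members that passed the test between populations. The 250 bases upstream of the RefSeq transcription starts of these 3 genes are therefore given (GRCm38.p6). Rgs4 is at chr1:169741477-169747642 on the minus strand and Rgs5 at chr1:169655501-169695813 on the plus strand, so the 2 genes lie tail to tail with 45.7 kb between them. Rgs17 is at chr10:5825663-5922400 on the minus strand (gene positions from GENCODE M21 on GRCm38). The windows are chr1:169747643-169747892 (minus strand) for Rgs4, chr1:169655251-169655500 (plus strand) for Rgs5 and chr10:5922401-5922650 (minus strand) for Rgs17. Capitals mark matches on either strand to TATAAA, a core element that sets the start of many genes, or to CCAAT, another common promoter element. They also mark TGACG, the core of the cyclic AMP response element, and the complete element, which is TGACGTCA and includes that core.
Rgs4: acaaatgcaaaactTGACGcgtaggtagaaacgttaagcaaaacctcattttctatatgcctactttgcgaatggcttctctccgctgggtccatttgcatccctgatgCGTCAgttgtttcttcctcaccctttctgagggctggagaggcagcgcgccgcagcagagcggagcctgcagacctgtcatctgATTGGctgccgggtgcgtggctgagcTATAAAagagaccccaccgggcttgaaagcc
Rgs5: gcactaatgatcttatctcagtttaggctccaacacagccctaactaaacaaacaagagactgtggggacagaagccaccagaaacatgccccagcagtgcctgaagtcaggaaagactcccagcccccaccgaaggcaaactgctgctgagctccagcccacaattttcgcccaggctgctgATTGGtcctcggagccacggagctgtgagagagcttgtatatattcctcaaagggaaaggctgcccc
Rgs17: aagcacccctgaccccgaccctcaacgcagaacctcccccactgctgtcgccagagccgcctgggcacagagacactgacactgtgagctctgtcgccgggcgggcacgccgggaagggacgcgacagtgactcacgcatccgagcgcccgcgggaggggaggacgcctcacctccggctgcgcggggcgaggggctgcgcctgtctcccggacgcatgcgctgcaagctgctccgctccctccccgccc
The Rgs4 window held the first 3 of these motifs, the Rgs5 window held CCAAT alone and the Rgs17 window held none. The complete response element was in none of the 3 windows. Of 32851 upstream windows of the same length, 12.4% held the first motif, 33.8% the second, 17.8% the response element core and 1.55% the complete element. A match describes the letters of the window only.

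Library totals ran from 9021125 to 12153109 counts in Sst pools and from 7419027 to 9568508 in Trpv1 pools. Levels are given as CPM, counts scaled to library size after TMM normalization. All 8 sensory neuron markers listed had counts in every library, and 1 of them, Snap25, was called higher, at a mean of 4052 CPM in Sst pools and 2000 CPM in Trpv1 pools. Both driver genes had counts in all 8 libraries, with 713 to 3692 counts of Sst in Sst pools and 457 to 1540 in Trpv1 pools, and 536 to 2240 counts of Trpv1 in Sst pools and 1260 to 2899 in Trpv1 pools. Neither passed between the populations, and the CPM ranges of both overlapped. The log2 fold change, Sst pools over Trpv1 pools, was 1.07 for Sst (edgeR adjusted p = 0.0753) and −0.95 for Trpv1 (edgeR adjusted p = 0.109). Of the 11 markers of myelinated sensory neurons listed, 11 were higher in Sst pools. Of the 7 markers of peptidergic nociceptors 6 were lower, all but Trpv1. Of 9 markers of the NP3 class, neurons marked by Nppb and Sst, 4 were higher in Sst pools and 0 lower. The 4 were Il31ra, Jak1, Npy2r and Htr1f. Neither Sst nor Nppb passed (for Nppb log2 fold change 1.15, edgeR adjusted p = 0.129). The summed level of the 9 markers was 4600 to 7698 CPM in Sst pools and 2561 to 2731 CPM in Trpv1 pools. Jak1 alone averaged 2933 CPM in Sst pools and 1309 CPM in Trpv1 pools. Among all 11828 genes tested, 6.35% were called in either direction. The summed level of 11 markers of satellite glia and Schwann cells was 840 to 1360 CPM in Sst pools and 866 to 1319 CPM in Trpv1 pools. In pools, fewer cells of a type and less RNA per cell cannot be told apart, and the part of these differences in make-up in the RGS values was not tested. The 4 Sst libraries and Trpv1 replicates 3 and 4 had Xist reads and none from Y-linked genes, and the reverse was true of Trpv1 replicates 1 and 2. RNA of the pituitary hormones Gh and Prl was present in Sst replicate 2 and in Trpv1 replicates 1, 2 and 3, and at no more than 1 count per gene in the other 4 libraries. The labels call the 4 samples of each genotype independent without saying which mice each came from, so p-values measure the spread between these samples.

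The comparison asks how neurons picked through Sst-driven Cre differ in these regulators from neurons picked through Trpv1-driven Cre. Rgs5 rose 2.54-fold in Sst pools and Rgs17 fell, being 3.10-fold higher in Trpv1 pools. The other 8 members did not pass. Of the 10 members, 1 was called higher and 1 lower, against 3.04% higher and 3.31% lower of all 11828 genes (6.35% in either direction) at an adjusted p under 0.05 (edgeR, quasi-likelihood, p-values adjusted by Benjamini and Hochberg's method over all genes tested). The median log2 fold change, Sst over Trpv1, was −0.35 over the 10 members and 0.01 over all genes. For 3 members, Rgs5, Rgs9 and Rgs17, the CPM ranges of the groups did not overlap, with 1 above and 2 below. Of all genes 11.1% did not overlap, 5.43% with Sst pools above and 5.71% with Sst pools below. At an unadjusted p under 0.05 stood 4 members, Rgs5, Rgs7, Rgs9 and Rgs17, against 20.5% of all genes.

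**Figure D1:**
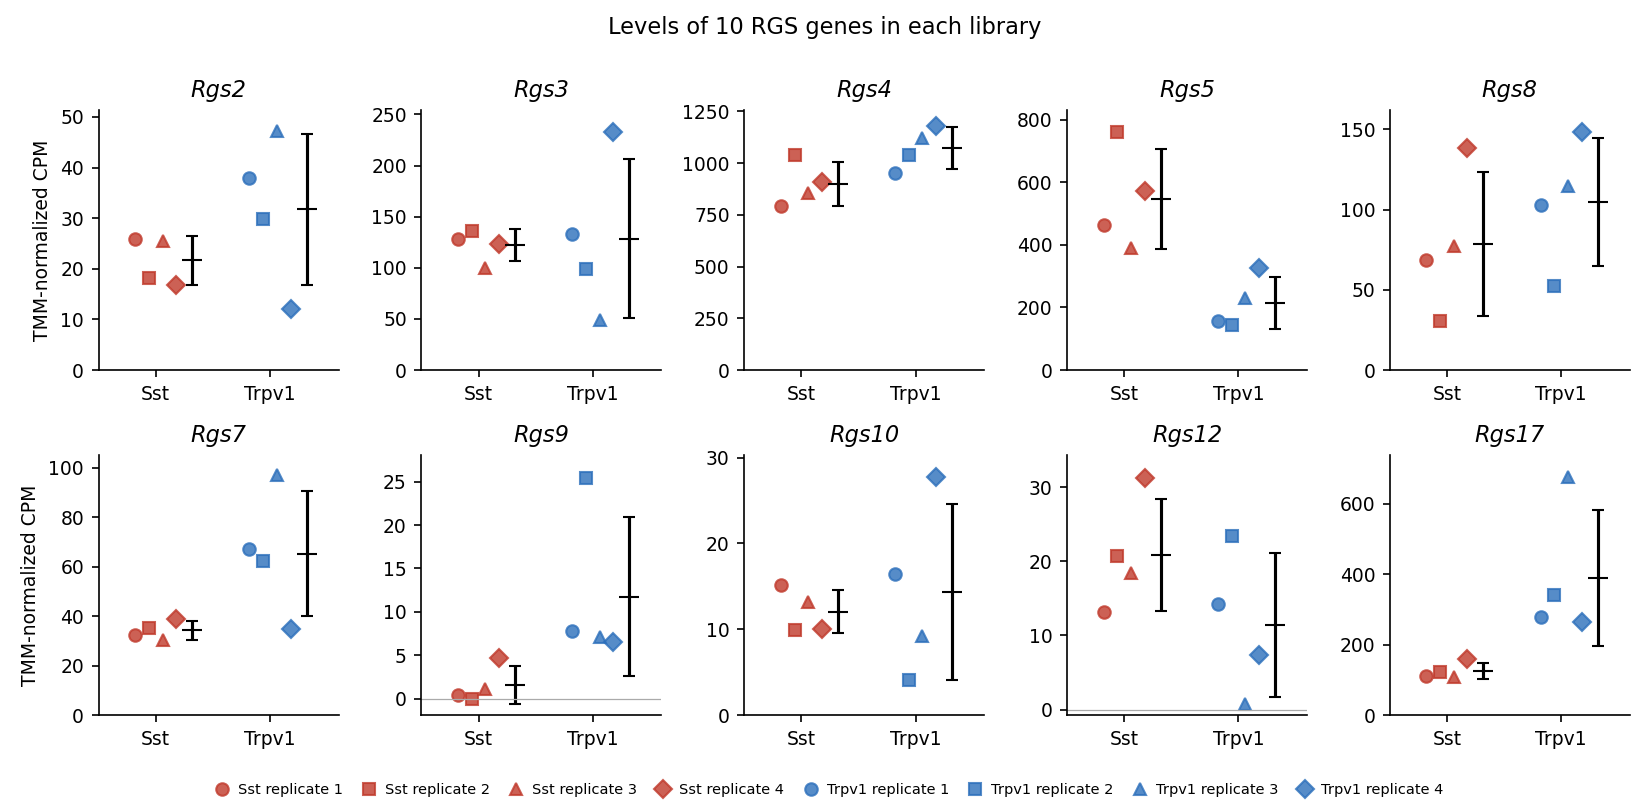
TMM-normalized CPM (vertical axes, each from its own scale) of the 10 RGS genes in the Sst and Trpv1 libraries, with a marker per replicate and black bars for the mean and SD of 4 libraries. Rgs5 lies at 390 to 761 CPM in Sst pools and at 145 to 327 CPM in Trpv1 pools, and Rgs17 at 108 to 159 CPM in Sst pools and at 265 to 674 CPM in Trpv1 pools.

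Levels of different genes were compared per kb of merged exons. Rgs4 led in both populations, at 290 ± 34.1 CPM per kb in Sst pools and 346 ± 32.2 CPM per kb in Trpv1 pools (SD, n = 4 each), and its range overlapped with no other member. Rgs5 came next, at 120 ± 35.5 CPM per kb in Sst pools and 47.2 ± 18.4 CPM per kb in Trpv1 pools. Rgs17 followed, at 15.1 ± 2.85 CPM per kb in Sst pools and 46.9 ± 23.2 CPM per kb in Trpv1 pools. In Sst pools the ranges of Rgs5 and Rgs17 were apart, whereas in Trpv1 pools they overlapped, so their order there is not set beyond the spread. In Sst pools the range of Rgs17 also lay above that of Rgs3, the next in order. It overlapped with that of Rgs8, so the place of Rgs17 there is not set beyond the spread. Below these genes the ranges of neighbours from Rgs3 to Rgs7 overlapped in Sst pools. Rgs12 lay below Rgs7 there but overlapped with Rgs8, and Rgs9 lay below all other members. In Trpv1 pools the neighbours from Rgs3 to Rgs12 all overlapped.

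The 5 R4 members made up 92.6% to 94.7% of the summed length-scaled RGS level in Sst pools and 81.0% to 89.8% in Trpv1 pools. Rgs5 took 25.4% ± 3.94 of the sum in Sst pools and 9.36% ± 2.66 in Trpv1 pools (SD, n = 4 each). Rgs17 took 3.26% ± 0.525 in Sst pools and 9.39% ± 3.89 in Trpv1 pools. Rgs4 took 62.4% ± 2.93 in Sst pools and 70.3% ± 3.39 in Trpv1 pools. The sum itself overlapped between the groups, at 413 to 553 CPM per kb in Sst pools and 432 to 548 CPM per kb in Trpv1 pools. These shares are a description and carry no test.

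**Figure D2:**
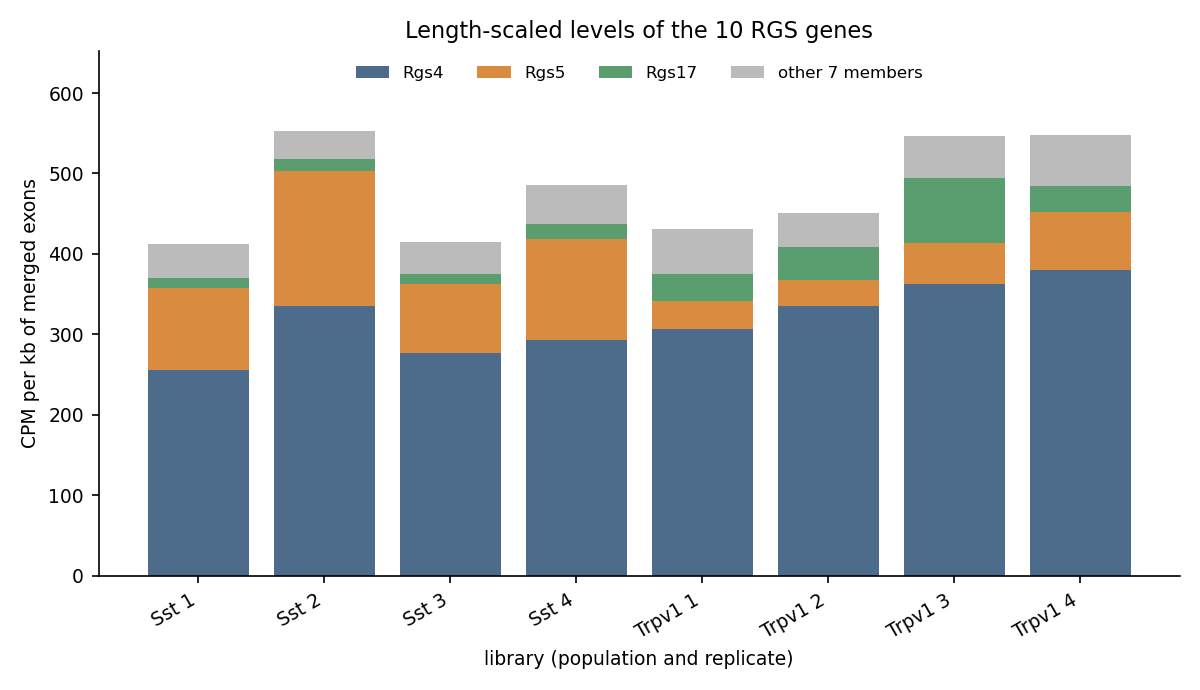
Stacked length-scaled levels (CPM per kb of merged exons) of Rgs4, Rgs5, Rgs17 and the other 7 RGS genes in each of 8 libraries. The Rgs5 segment takes 20.7% to 30.3% of the bar in Sst pools and 7.09% to 13.1% in Trpv1 pools.

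Among the R4 genes, Rgs5, a small regulator of Gi/o and Gq best known as a marker of pericytes, was higher in the Sst population. It stood at 463, 761, 390 and 573 CPM in Sst replicates 1 to 4, against 156, 145, 231 and 327 CPM in Trpv1 replicates 1 to 4. The lowest Sst library lay above the highest Trpv1 library. Its log2 fold change, Sst over Trpv1, was 1.35 (SE 0.254, edgeR adjusted p = 0.00137). The Trpv1 libraries with Xist held more Rgs5 than those without it, and the call was lost with a term for Xist (log2 fold change 0.97, edgeR adjusted p = 0.0600) and in the 6 libraries with Xist (1.00, edgeR adjusted p = 0.0957). In the 4 libraries with at most 1 count of Gh and Prl each, 3 of them Sst and a lone Trpv1 library assumed to vary like the others, it was 0.58 (edgeR adjusted p = 0.582).

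Pericytes are contractile cells of small vessels. The summed level of 11 pericyte and smooth muscle markers was 6.27 to 23.7 CPM in Sst pools and 6.73 to 49.5 CPM in Trpv1 pools. The marker Higd1b was at 0 in all 8 libraries and Kcnj8 had counts in Sst replicate 1 only, at 0.0996 CPM. Cspg4, of the same list, averaged 2.41 CPM in Sst pools and 0.349 CPM in Trpv1 pools and was not tested. Myh11, the 1 tested marker with a positive fold change, averaged 4.39 CPM in Sst pools and 2.31 CPM in Trpv1 pools (edgeR adjusted p = 0.676). The part of pericyte RNA in the Rgs5 values was not tested. Of 4 pericyte markers tested, 1, Notch3, was lower in Sst pools (log2 fold change −3.59, edgeR adjusted p = 0.0244) and 0 were called higher. Among all genes tested, 3.31% were lower and 3.04% higher. Notch3 stood at 0.896, 1.31, 0 and 1.27 CPM in Sst pools, against 9.42, 25.4, 0.127 and 7.32 CPM in Trpv1 pools, with overlap. The sum of 9 endothelial markers was 12.6 to 79.6 CPM in Sst pools and 14.0 to 46.6 CPM in Trpv1 pools.

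Rgs4, an inhibitor of Gi/o and Gq signalling that is abundant in neurons and lies next to Rgs5, did not pass. It stood at 791, 1040, 857 and 907 CPM in Sst pools, against 950, 1040, 1123 and 1179 CPM in Trpv1 pools. The ranges overlapped, with 3 of 4 Sst libraries below every Trpv1 library. The log2 fold change was −0.26 (95% confidence interval −0.59 to 0.08, edgeR adjusted p = 0.398). The ratio of Rgs5 to Rgs4 counts within a library, not scaled by length, ran from 0.456 to 0.732 in Sst pools and from 0.140 to 0.277 in Trpv1 pools. It carries no test.

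Rgs8, a neuronal R4 protein known for speeding G protein-gated potassium currents, stood at 68.6, 30.3, 77.2 and 139 CPM in Sst pools and at 103, 52.7, 115 and 149 CPM in Trpv1 pools. The libraries of each group spread widely and overlapped (log2 fold change −0.41, 95% confidence interval −1.15 to 0.34, edgeR adjusted p = 0.582). Rgs3, an R4 gene with long and short forms that this table does not separate, averaged 122 ± 15.6 CPM in Sst pools and 128 ± 77.9 CPM in Trpv1 pools (SD, n = 4 each). Its Trpv1 values reached from 49.1 CPM in replicate 3 to 233 CPM in replicate 4, so the Trpv1 libraries enclosed all Sst libraries (log2 fold change −0.08, 95% confidence interval −0.75 to 0.59, edgeR adjusted p = 0.922). Rgs2, which acts with preference on Gq, averaged 21.6 ± 4.77 CPM in Sst pools and 31.7 ± 14.9 CPM in Trpv1 pools, with overlap (log2 fold change −0.54, 95% confidence interval −1.45 to 0.37, edgeR adjusted p = 0.542).

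Rgs17, the RZ member, which acts on Gz and other Gi family subunits and is known as a brake on opioid receptors, was lower in the Sst population. It stood at 111, 124, 108 and 159 CPM in Sst pools, against 278, 341, 674 and 265 CPM in Trpv1 pools. All Sst libraries lay below all Trpv1 libraries, and Trpv1 replicate 3 was the highest. That library also had the highest share of mitochondrial counts, 40.2% against 21.7% to 33.0% in the other 7 libraries, and the part of this in its Rgs17 value was not tested. The log2 fold change was −1.63 (SE 0.272, edgeR adjusted p = 0.000371), and −1.23 without Trpv1 replicate 3 (edgeR adjusted p = 0.00226). The call held in 18 of 19 alternatives and was lost in the 4 libraries with at most 1 count of Gh and Prl (−1.03, edgeR adjusted p = 0.353). Within each Sst library Rgs17 had 0.163 to 0.278 counts per count of Rgs5, and within each Trpv1 library 0.810 to 2.92. This ratio restates the calls of Rgs5 and Rgs17 and is no further support for them. Its counts are not scaled by length, so it does not say which gene had the higher level.

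The R7 members had lower means in Sst pools and did not pass. Rgs9, known from the retina and the striatum, stood at 0.398, 0, 1.11 and 4.72 CPM in Sst pools, against 7.76, 25.4, 7.11 and 6.58 CPM in Trpv1 pools. The groups did not overlap, and Trpv1 replicate 2 stood well above the other Trpv1 libraries. The log2 fold change was −2.78 (SE 0.876, edgeR adjusted p = 0.0556). Without Sst replicate 4, which held most of the Sst counts, it was −4.39 (edgeR adjusted p = 0.0201), and it also passed among genes kept by a stricter filter (−2.79, edgeR adjusted p = 0.0379). Without Trpv1 replicate 2 the log2 fold change was −2.09 (edgeR adjusted p = 0.207), and with a term for Xist −2.04 (edgeR adjusted p = 0.363). The adjusted p ran from 0.0201 to 0.664 over all alternatives.

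Rgs7, a neuronal regulator of Gi/o, stood at 32.4, 35.4, 30.4 and 39.1 CPM in Sst pools and at 67.3, 62.3, 97.0 and 34.9 CPM in Trpv1 pools. Trpv1 replicate 4 lay within the Sst range and the other Trpv1 libraries above it. The log2 fold change was −0.92 (95% confidence interval −1.64 to −0.20, unadjusted p = 0.0147, edgeR adjusted p = 0.121). Gpr158, a partner of R7 proteins, and Rgs6, an R7 gene outside the members, were higher in Sst pools (given below). Gnb5, the beta subunit that R7 proteins need for stability, was named after its values were seen. It stood at 5.28, 4.80, 6.86 and 7.80 CPM in Sst pools, against 21.8, 48.6, 12.4 and 13.4 CPM in Trpv1 pools, without overlap (log2 fold change −1.92, SE 0.590, edgeR adjusted p = 0.0520). It passed in 4 of 19 alternatives, among them DESeq2 (−1.98, adjusted p = 0.00992). Without Trpv1 replicate 2, the highest library, Gnb5 was at −1.34 (edgeR adjusted p = 0.232), and with a term for Xist at −1.05 (edgeR adjusted p = 0.499).

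The R12 members did not pass. They took 1.49% to 2.52% of the summed length-scaled RGS level in Sst pools and 1.01% to 3.11% in Trpv1 pools. Rgs10, a small regulator of Gi subunits also known from microglia, averaged 12.1 ± 2.53 CPM in Sst pools and 14.4 ± 10.2 CPM in Trpv1 pools (SD, n = 4 each; log2 fold change −0.29, 95% confidence interval −1.46 to 0.87, edgeR adjusted p = 0.83). Rgs12, a long scaffold protein with several binding domains, stood at 13.1, 20.7, 18.4 and 31.2 CPM in Sst pools and at 14.3, 23.4, 0.761 and 7.32 CPM in Trpv1 pools. The groups overlapped, with the lowest values in Trpv1 replicates 3 and 4 (log2 fold change 0.88, 95% confidence interval −0.31 to 2.07, edgeR adjusted p = 0.421). An annotated antisense gene covers 5.5% of the exon bases of Rgs12 and another covers 0.726% of those of Rgs8. Whether strand was used in counting is not known from the labels, so reads of both strands cannot be told apart there.

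**Figure D3:**
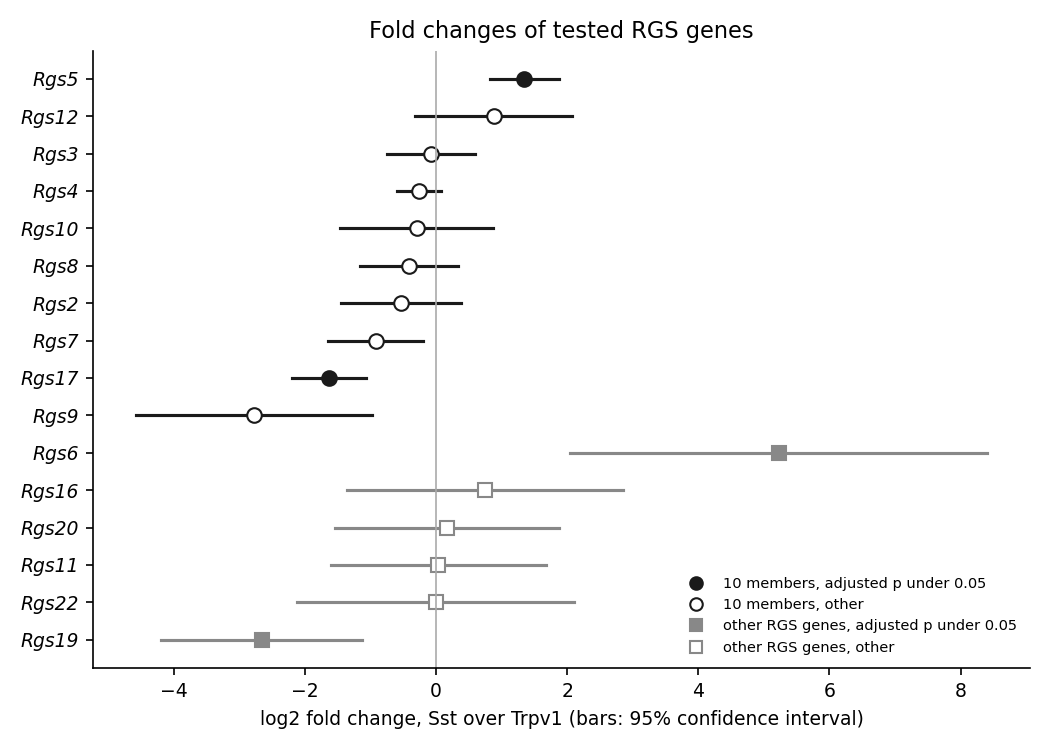
Log2 fold changes, Sst over Trpv1, of the 10 RGS members (circles) and of 6 other RGS genes that were tested (squares), with bars for the 95% confidence interval and filled symbols for an adjusted p under 0.05. Among the members Rgs5 lies at 1.35 and Rgs17 at −1.63, and the other 8 symbols are open.

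Of 11 other genes of the family, 6 had enough reads to be tested, 1 was higher and 1 lower in Sst pools and 4 did not pass. Among all genes tested, 3.04% were higher and 3.31% lower. Rgs6, an R7 gene, had 94, 13, 17 and 118 counts in Sst pools, against 0, 1, 4 and 0 counts in Trpv1 pools. The groups did not overlap, and most Sst counts came from replicates 1 and 4. On the log2 scale the fold change was 5.23 (SE 1.53, edgeR adjusted p = 0.0429), and without Trpv1 replicate 3, which held 4 of the counts, 6.88 (edgeR adjusted p = 0.102). The call ended without any 1 pool other than Sst replicates 2 and 3 (edgeR adjusted p from 0.0844 to 0.120). Rgs6 stayed past the threshold in 7 of 18 alternatives.

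Rgs19, an RZ gene that acts on Gi family subunits, had 37, 4, 15 and 18 counts in Sst pools, against 99, 129, 55 and 116 counts in Trpv1 pools. The groups did not overlap (log2 fold change −2.66, SE 0.746, edgeR adjusted p = 0.0292). The call held in 6 of 19 alternatives. It ended on removal of 1 pool, other than Sst replicate 1 (−3.25, edgeR adjusted p = 0.0416) and Trpv1 replicate 3, with edgeR adjusted p from 0.0514 to 0.0993. Rgs11, Rgs16, Rgs20 and Rgs22 had log2 fold changes of 0.03, 0.74, 0.17 and −0.01 and edgeR adjusted p from 0.745 to 0.997. Of the genes that were not tested, Rgs13, Rgs18 and Rgs21 had 0 counts in all 8 libraries, Rgs14 had 1 count in each group, and Rgs1 had 8 counts in the Sst group and 1 in the Trpv1 group.

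The 11 lists of pathway genes held G protein subunits, partners and effectors with which RGS proteins work, and the other RGS genes. Of their 53 tested genes, edgeR called 3 higher and 2 lower in Sst pools, of which Rgs6 and Rgs19 belong to the RGS family. These were 9.43% of the genes tested, against 6.35% of all genes, and the median log2 fold change over the lists was 0.04. Gpr158, an orphan receptor that binds RGS7 at the membrane, rose to 305, 260, 254 and 148 CPM in Sst pools, against 82.4, 85.0, 156 and 70.2 CPM in Trpv1 pools. Sst replicate 4 lay below Trpv1 replicate 3, and the others were apart. The log2 fold change was 1.30 (SE 0.279, edgeR adjusted p = 0.00462), with the call lost with a term for Xist (1.11, edgeR adjusted p = 0.0889), in the 6 libraries with Xist (1.13, edgeR adjusted p = 0.134) and in the 4 libraries with at most 1 count of Gh and Prl (1.79, edgeR adjusted p = 0.230). Of the 4 tested partners of R7 proteins, edgeR called 1, Gpr158, while DESeq2 also called Gnb5.

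Of 7 tested gamma subunit genes, 1 was higher and 1 lower, against 3.04% higher and 3.31% lower of all genes tested. Gng7 stood at 5.48, 11.7, 41.1 and 28.8 CPM in Sst pools, against 4.86, 2.94, 0 and 0.531 CPM in Trpv1 pools, with Sst replicate 1 just above Trpv1 replicate 1 (log2 fold change 3.35, SE 0.821, edgeR adjusted p = 0.0118). Gng8 had 8 counts in Sst replicate 1 and 0 in the other Sst libraries, against 29, 69, 46 and 25 counts in Trpv1 pools (log2 fold change −4.56, SE 1.29, edgeR adjusted p = 0.0350). Without Sst replicate 1 the Sst group held 0 counts of Gng8, and the fitted value of −8.53 then measures no size (edgeR adjusted p = 0.0629). Gng7 passed in 12 of 19 and Gng8 in 4 of 18 alternatives. Gng7 lost its call without Sst replicate 3, Trpv1 replicate 3 or Trpv1 replicate 4 (edgeR adjusted p = 0.0634, 0.0537 and 0.0507). The log2 fold change of Gng7 was 4.31 without Trpv1 replicate 1 (edgeR adjusted p = 0.0188). Removal of any single pool other than Trpv1 replicate 4 ended the call of Gng8 (edgeR adjusted p from 0.0551 to 0.111).

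Of 12 tested alpha subunit genes, 0 passed in edgeR and DESeq2 and 1, Gnao1, in limma voom with sample weights. At an unadjusted p under 0.05 were 3 with edgeR, 3 with DESeq2 and 6 with limma voom, against 20.5% of all genes with edgeR. Gnao1, the alpha subunit Go on which many RGS proteins act, averaged 1458 ± 301 CPM in Sst pools and 2129 ± 374 CPM in Trpv1 pools (SD, n = 4 each), with Sst replicate 4 inside the Trpv1 range (log2 fold change −0.55, SE 0.168, edgeR adjusted p = 0.0533). It passed in 6 of 19 alternatives, among them limma voom with sample weights (−0.58, adjusted p = 0.00860) and without Sst replicate 4 (−0.70, edgeR adjusted p = 0.00899). Gnaq, the alpha subunit of the Gq pathway, averaged 519 ± 84.7 CPM in Sst pools and 659 ± 124 CPM in Trpv1 pools (edgeR adjusted p = 0.319), and Gnal, a stimulatory alpha subunit, 1668 ± 367 CPM in Sst pools and 1499 ± 152 CPM in Trpv1 pools (edgeR adjusted p = 0.655). Of 3 beta subunit genes, 1 potassium channel gene, 7 receptor kinase and arrestin genes, 4 other regulators and 9 scaffold and RhoGEF genes, 24 in all, 0 passed in edgeR, DESeq2 or limma voom. At an unadjusted p under 0.05 were 1, 1 and 2 of them with these tools, against 20.5% of all genes with edgeR. The most abundant of each list, Gnb1, Kcnj3, Arrb1, Ric8b and Arhgef12, had log2 fold changes of 0.39, −0.37, −0.46, 0.15 and 0.47 and edgeR adjusted p from 0.149 to 0.880.

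**Figure D4:**
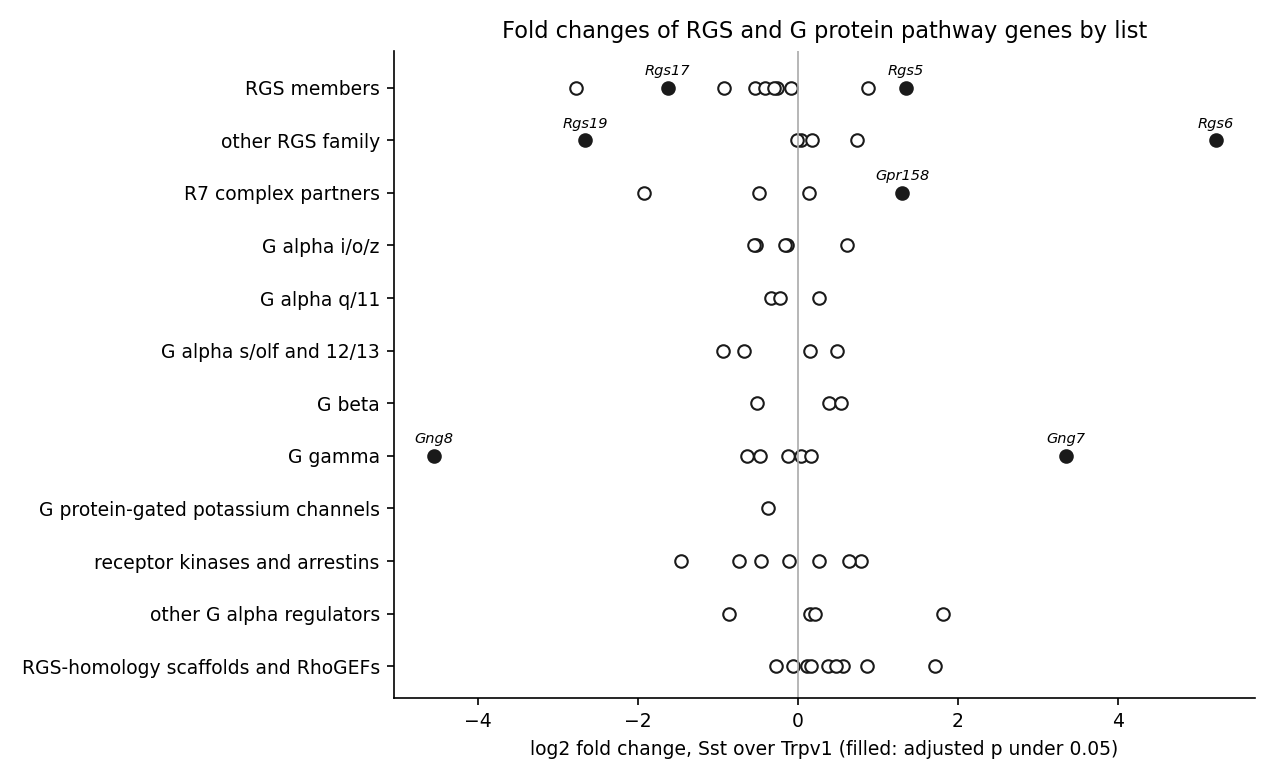
Log2 fold changes, Sst over Trpv1, of tested genes in the RGS set and in 11 lists of G protein pathway genes, with filled circles and names for an adjusted p under 0.05. Filled circles on the positive side are Rgs5, Rgs6, Gpr158 and Gng7, and on the negative side Rgs17, Rgs19 and Gng8.

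For the 2 called members, the genes of most like pattern were found by the root mean square difference of log2 CPM, each gene centred on its mean over the 8 libraries, among 11101 tested genes. Nearest to Rgs5 were Idh3g, a subunit of mitochondrial isocitrate dehydrogenase, at a difference of 0.29, Atp5j, a subunit of the mitochondrial ATP synthase, at 0.30, and Rdh14, a retinol dehydrogenase, at 0.31. Of these, Idh3g was higher in Sst pools (log2 fold change 1.70, edgeR adjusted p = 0.00685), while Atp5j and Rdh14 did not pass (edgeR adjusted p = 0.108 and 0.393). Nearest to Rgs17 were Cnksr2, a neuronal scaffold protein, at 0.25, Ids, a lysosomal sulfatase, at 0.25, and Cacna2d1, an auxiliary subunit of calcium channels, at 0.26. All 3 were lower in Sst pools, with log2 fold changes of −1.67, −1.21 and −1.61. The measure uses the same 8 libraries for all genes and describes them only.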

How the data were processed

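Per the labels' protocols, fluorescent neurons were picked by hand in sessions that held a sample of each genotype, and PicoPure extraction, Ovation RNA-seq V2 amplification and Nextera XT library preparation followed. The authors deposited raw counts of reads per gene symbol. Per the submitters' processing notes, bcl2fastq 2.17, Trimmomatic 0.33, featureCounts and the build GRCm38 were used. The sources used here do not give the aligner, annotation, strand setting or treatment of multi-mapping reads. Counting reads without molecular identifiers after amplification of small pools adds spread to low genes.

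Columns were matched to samples by name, with 0 left over. Counts were scaled by TMM, filtered at edgeR's minimum count of 10 and tested with edgeR 4.0.16 (R 4.3.3; quasi-likelihood F test, robust, bias-adjusted dispersion, group as sole term, two-sided, threshold 0.05). SEs came from the fold change and F statistic. Lengths are merged exons of GENCODE M21 (GRCm38), upstream sequences RefSeq's, where all 10 members matched. Replicates differed by more than counting noise (chi-square per degree of freedom 43.4 to 108). The test was checked on simulated data, and no error rate from that check is given here. The members, lists and tests were chosen with earlier results of these data known. Named were all members, tested RGS genes, up to 6 called genes per pathway list or else its most abundant, and 3 genes of like pattern per called member. Grk2, Grk3 and Ric8a matched no symbol; Adrbk1 and Adrbk2, older names of Grk2 and Grk3, were listed too.

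The 19 alternatives were RLE scaling, no filter, a stricter one (4 libraries at 5 CPM or more), limma 3.58.1 voom with sample weights, DESeq2 1.42.0, no robustness, edgeR's earlier quasi-likelihood method (added after seeing the data), the replicate number as a block, each library left out, a term for Xist, libraries with Xist, and libraries nearly free of Gh and Prl.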

Additional observations from a re-analysis of the deposited data

Results flagged for a closer look

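In 4 of 56 groups of 4 libraries (28 named genes in each population), a library stood apart from the rest of its group on the log2 scale by more than Dixon's 95% critical value. Chance flags about 1 in 20 groups. Rgs9 was at 25.4 CPM in Trpv1 replicate 2, against 6.58 to 7.76 CPM in the other Trpv1 libraries. Gnaq was at 646 CPM in Sst replicate 4, against 468 to 489 CPM in the other Sst libraries. Gnal was at 2218 CPM in Sst replicate 4, against 1460 to 1500 CPM in the other Sst libraries. Gng8 was at 0.797 CPM in Sst replicate 1 and at 0 in the other Sst libraries. Where all the others are at 0, any count is flagged, so the chance rate does not hold for Gng8.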

How the results depend on the processing

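Among the 10 members, Rgs5 remained called higher in 16 and Rgs17 called lower in 18 of 19 alternatives, and both kept their sign in all 19. With a term for Xist 0 members were called higher, as in the 6 libraries that held Xist; in the 4 libraries nearly free of Gh and Prl 0 were called higher and 0 lower. Called lower were 2 members with the stricter filter, and without single libraries 1 to 2. For pathway genes (3 higher and 2 lower) the counts without single libraries were 1 to 3 higher and 0 to 2 lower. They were 1 and 1 with voom and with a term for Xist, 1 and 0 with edgeR's earlier method, and 0 and 0 in the Xist-positive libraries and in those nearly free of Gh and Prl. For all genes (360 higher and 391 lower) they were 222 to 411 and 222 to 347 without single libraries, 168 higher with Xist as a term, 122 and 183 in the Xist-positive libraries, 15 and 37 in those nearly free of Gh and Prl, and 246 and 247 with edgeR's earlier method. The cause of these changes was not tested. The subsets hold fewer samples, whereas the fits with Xist as a term and with edgeR's earlier method kept all 8 libraries. The 1 pathway gene called lower with voom and with a term for Xist was Gnao1, which the main fit did not call. Its adjusted p was 0.00860 with voom and 0.0316 with the term for Xist (edgeR). Neither Rgs19 nor Gng8 passed in these 2 fits. With the replicate number as a block, 0 pathway genes were called lower, through the loss of Rgs19 and Gng8, 1 member was called higher and 1 lower. Deviations of same-numbered libraries correlated between −0.0296 and 0.0316, and 1 of 4 Sst libraries matched its own number best. With 4 libraries per group this cannot settle whether the numbers mark pairs. The labels do not say whether a replicate number marks a picking session. Of the members not called, Rgs3 and Rgs10 had positive fold changes (log2) without Trpv1 replicate 4 (0.39 and 0.25) and with voom (0.18 and 0.14). Rgs3 also did without Sst replicate 3 (0.03) and with the block (0.10), and Rgs2 (0.95) and Rgs7 (0.0011) did in the libraries nearly free of Gh and Prl.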
